A study of Mus musculus with 4 samples.

Results

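The D cyclins Ccnd1, Ccnd2 and Ccnd3, their kinases Cdk4 and Cdk6, the CDK inhibitor Cdkn1b, the pocket proteins Rb1, Rbl1 and Rbl2, and Myc are 10 regulators of entry into the cell cycle that act upstream of the E2F transcription factors. They were chosen by gene symbol, and all 10 were found among the 52630 gene identifiers of the deposited table. The libraries came from AML12, a mouse hepatocyte line established from a mouse that carries a human TGF-alpha transgene under a metallothionein promoter. The study infected these cells with lentivirus carrying a hairpin against Topors (shTopors) or a control hairpin (shCtrl), and sequenced ribosome-depleted RNA collected 5 days later, from 2 libraries per group. Topors encodes an E3 ligase for ubiquitin and SUMO. All cells received 200 µl of concentrated virus and grew in medium with serum, insulin, transferrin and selenium supplement and dexamethasone. The labels give 1 hairpin name per group and leave unsaid whether libraries with the same hairpin are separate cultures. The p-values therefore describe library-to-library spread, which may be technical.

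When a cell is stimulated to divide, D cyclins accumulate and activate CDK4 and CDK6, which phosphorylate the pocket proteins and so release E2F factors to switch on S phase genes. The CDK inhibitor p27, product of Cdkn1b, restrains passage into S phase by blocking cyclin E and CDK2 complexes, and the transcription factor MYC promotes it. In the liver, cyclin D1 is the D cyclin best known for driving quiescent hepatocytes into the cell cycle after partial hepatectomy, and Myc is induced early in the same response.

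Levels are TPM, a transcript abundance scaled by gene length and library, so genes can be compared with each other. TPM keeps no depth, so read numbers are unknown. Topors itself was at 4.31 and 4.65 TPM in shTopors and 21.9 and 29.2 TPM in shCtrl, so both knockdown libraries went with their labels. Of 12 hepatocyte markers, 9 or 10 reached 1 TPM in each library, while Ahsg and Apoa2 stayed under 1 TPM in every library. The summed hepatocyte markers were 2040 and 2507 TPM in shTopors and 3548 and 5768 TPM in shCtrl, mostly from Trf and Ttr, and not all members followed the sum. Alb was at 4.15 and 402 TPM in shTopors and 118 and 271 TPM in shCtrl, and Apoa1 at 113 and 11.5 TPM in shTopors and 12.3 and 28.4 TPM in shCtrl. None of 6 stellate cell or 5 endothelial markers reached 1 TPM in any library, and of 6 leukocyte markers only Cd68 did, at 1.31 TPM in shTopors 2. Of 5 bile duct markers 4 were above 1 TPM in all libraries, with sums of 1891 and 1088 TPM in shTopors and 952 and 1412 TPM in shCtrl. These markers did not move together: Krt19 was highest in shTopors 1, at 1396 and 345 TPM in shTopors and 341 and 296 TPM in shCtrl, while Sox9 was lowest there, at 26.9 and 42.1 TPM in shTopors and 76.8 and 91.2 TPM in shCtrl. Spp1 was also lowest in shTopors 1, at 341 and 636 TPM in shTopors and 441 and 919 TPM in shCtrl. In such bulk RNA, fewer cells of a type and less RNA per cell cannot be told apart, and the part of these markers in the results below was not tested.

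The knockdown was tested with limma on log2(TPM + 1) over the 13509 genes whose mean over the libraries reached 1 TPM, with Benjamini-Hochberg adjustment over all of them. All 10 regulators entered the test and none passed an adjusted p of 0.05. Over all genes 0.037% passed at that threshold. At an unadjusted p under 0.05, 2 of the 10 were lower (Ccnd2 and Rbl2) and none higher, against 10.7% of all tested genes lower and 3.98% higher. The shTopors and shCtrl libraries did not overlap for 5 of the 10, and for 49.8% of all tested genes. Of these, Ccnd2, Ccnd3 and Rbl2 were lower in shTopors, a direction found for 35.2% of all tested genes, and Cdk4 and Rbl1 were higher, a direction found for 14.6%. The median log2 difference was -0.32 over the 10 genes and -0.18 over all tested genes. Median-of-ratios scaling and quantile normalization, which align the libraries by design, brought the all-gene median to -0.04 and -0.01. Rescaling over protein-coding genes left it at -0.19. Because the all-gene median depends on the scaling, the log2 difference of each regulator is given with its excess over the median of all genes. Without shTopors 1 or shTopors 2, 8.49% or 16.0% of all tested genes passed the adjusted threshold, and single regulators that passed in those fits are to be read against these shares. Topors itself had a log2 difference of -2.27 (SE 0.29) and an adjusted p = 0.0823 in limma's test, so the targeted gene did not pass either.

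**Figure D1:**
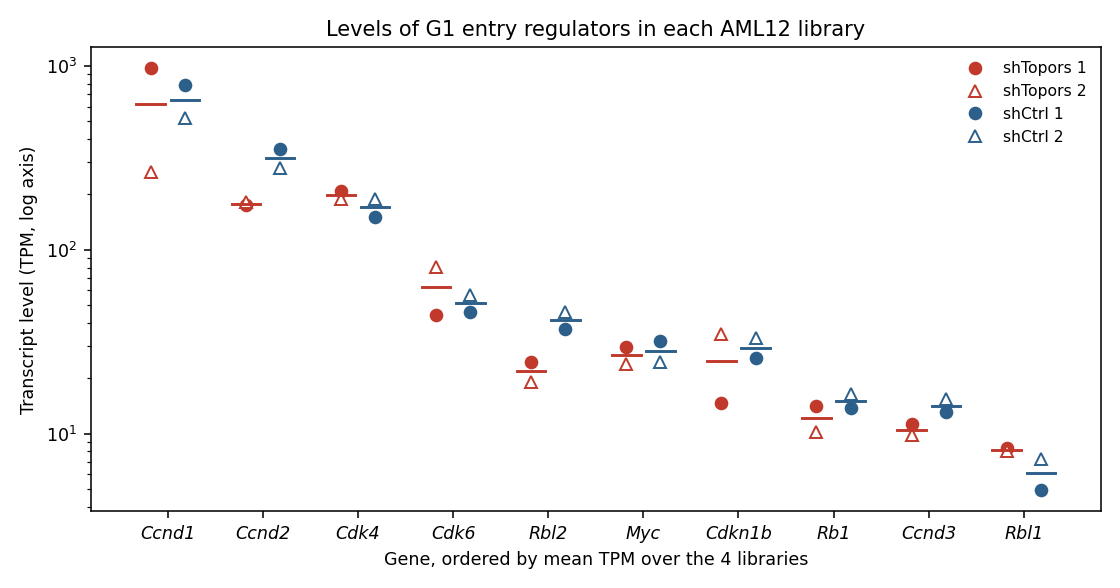
Transcript levels (TPM, log axis) of the 10 regulators in each library, with shTopors in red left of shCtrl in blue, circles for library 1, triangles for library 2 and bars for group means. Ccnd2 and Rbl2 sit lower in both shTopors libraries, while the shTopors libraries lie on opposite sides of the controls for Ccnd1.

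By mean level over the 4 libraries the order was Ccnd1, Ccnd2, Cdk4, Cdk6, Rbl2, Myc, Cdkn1b, Rb1, Ccnd3 and Rbl1, at 634, 247, 184, 56.9, 31.7, 27.4, 26.996, 13.6, 12.3 and 7.13 TPM. Of neighbours in this order, only Cdk4 and Cdk6, and Ccnd3 and Rbl1, had ranges over the libraries that did not overlap. Ccnd2 and Cdk4 exchanged places between the groups: Cdk4 stood above Ccnd2 in both shTopors libraries and below it in both shCtrl libraries.

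Among the D cyclins, Ccnd2 was lower in both knockdown libraries, Ccnd3 was slightly lower, and Ccnd1 differed more between the knockdown libraries than between the groups. Ccnd2 encodes cyclin D2, a D cyclin whose gene is a direct MYC target in other cell types. It was at 174 and 181 TPM in shTopors and 354 and 279.6 TPM in shCtrl. Both knockdown libraries were close together and below both controls. The means were 178 ± 4.95 TPM in shTopors and 317 ± 52.8 TPM in shCtrl (SD, n = 2), a ratio of 0.56. The log2 difference was -0.82 (SE 0.23, 95% interval -1.36 to -0.29) and its excess over all genes -0.64. In limma's test the adjusted p = 0.223 did not pass. It ranged from -0.99 to -0.65 with 1 library left out, with an adjusted p of 0.0640 without shTopors 1, 0.0231 without shTopors 2, 0.720 without shCtrl 1 and 0.872 without shCtrl 2. Ccnd2 lies at mm10 chr6:127125162-127152193 on the minus strand (ENSMUSG00000000184).

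Ccnd1, whose product cyclin D1 links growth factor signals to the cell cycle, was at 968 and 266 TPM in shTopors and 783 and 520 TPM in shCtrl. The library shTopors 1 was the highest of the 4 and shTopors 2 the lowest. The means, 617 ± 497 TPM in shTopors and 651 ± 186 TPM in shCtrl (SD, n = 2), hardly differed beside that spread. The level was 3.65-fold higher in shTopors 1 than in shTopors 2, and on the log2 scale only 1.87% of tested genes lay farther apart in this pair. The log2 difference between groups was -0.33 (SE 0.55, adjusted p = 0.792 in limma's test), with an excess of -0.15. It was -1.26 with an adjusted p = 0.000769 when shTopors 1 was left out, and 0.60 with an adjusted p = 0.0802 when shTopors 2 was left out, where the lone library is assumed to vary like the other group. No direction can therefore be given for Ccnd1, which lies at mm10 chr7:144929931-144939925 on the minus strand (ENSMUSG00000070348).

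Ccnd3, encoding cyclin D3, was at 11.2 and 9.78 TPM in shTopors and 13.0 and 15.3 TPM in shCtrl. All 4 values were low next to the other D cyclins, and the groups did not overlap. The log2 difference was -0.40 (SE 0.28, adjusted p = 0.515 in limma's test), with an excess of -0.21. Ccnd3 lies at mm10 chr17:47505051-47599691 on the plus strand (ENSMUSG00000034165).

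The share of each D cyclin within a library does not move when a library is scaled by 1 factor, though quantile normalization, which shifts genes of a library unequally, can move it. Ccnd1 made up 83.9% and 58.2% of D cyclin TPM in shTopors and 68.1% and 63.8% in shCtrl. The knockdown libraries again fell on both sides of the controls. The mean difference was 5.13 percentage points, with an exact two-sided permutation p of 1 and a Benjamini-Hochberg p of 1 over the 4 ratios tested, where 0.33 is the smallest p that 2 libraries per group allow. Ccnd2 made up 15.1% and 39.7% in shTopors and 30.8% and 34.3% in shCtrl, and Ccnd3 at most 2.14% in any library. The summed D cyclin level was 1153 and 456 TPM in shTopors and 1150 and 815 TPM in shCtrl, so shTopors 1 matched the higher control and shTopors 2 lay below both.

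**Figure D2:**
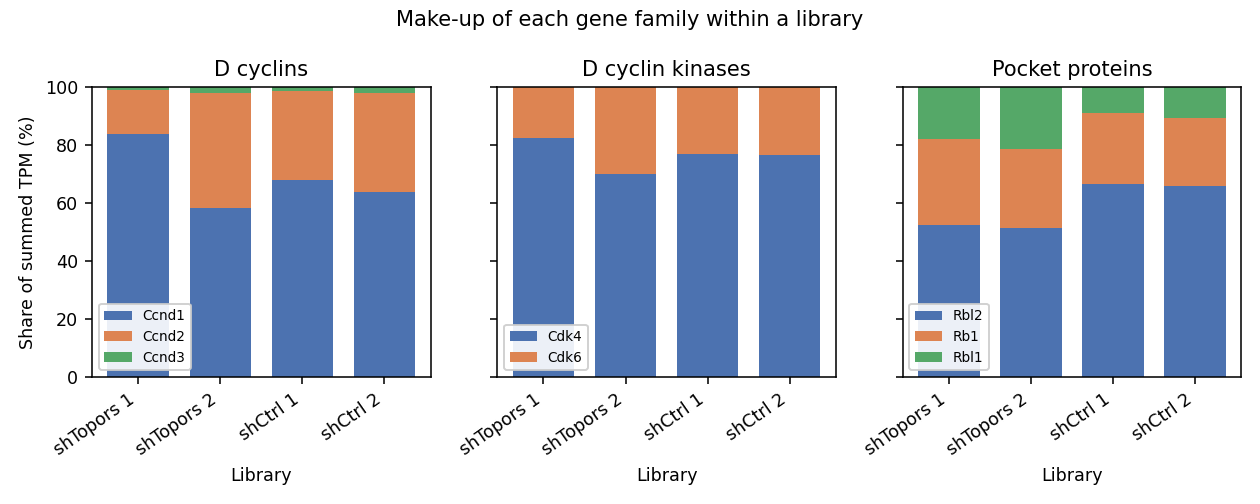
Share (%) of summed TPM taken by each D cyclin, D cyclin kinase and pocket protein in each library, shTopors libraries left of shCtrl libraries. The D cyclin and kinase shares of the shTopors libraries fall on both sides of the controls, while Rbl1 takes 17.7% and 21.4% of pocket protein TPM in shTopors and 8.82% and 10.4% in shCtrl.

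Of the kinases, Cdk4 lay marginally above the controls and Cdk6 differed between the knockdown libraries. Cdk4, the main partner of cyclin D1 in epithelial cells, was at 209 and 188.3 TPM in shTopors and 151 and 188.26 TPM in shCtrl. The groups did not overlap, but shTopors 2 and shCtrl 2 were nearly equal. The log2 difference was 0.23 (SE 0.23, 95% interval -0.31 to 0.78), its excess 0.42 and the adjusted p = 0.652 in limma's test. Cdk6, which partners all D cyclins and is best known in blood cells, was at 44.4 and 80.5 TPM in shTopors and 45.7 and 56.9 TPM in shCtrl. Here shTopors 2 was the highest library and shTopors 1 the lowest, just under shCtrl 1, the reverse of Ccnd1. The control pair also ran opposite to Ccnd1, by a smaller step. On the log2 scale 15.5% of tested genes lay farther apart in the shTopors pair. The log2 difference in Cdk6 was 0.22 (SE 0.33, adjusted p = 0.761 in limma's test), with an excess of 0.41. It was 0.65 without shTopors 1 and -0.20 without shTopors 2. Cdk6 made up 17.5% and 29.9% of the TPM of both kinases in shTopors and 23.19% and 23.22% in shCtrl. The mean difference was 0.51 percentage points, with an exact permutation p of 1. The gene positions are mm10 chr10:127063534-127067920 on the plus strand for Cdk4 (ENSMUSG00000006728) and chr5:3341485-3531008 on the plus strand for Cdk6 (ENSMUSG00000040274).

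The promoter of Cdk4 is shown because it holds several copies of the E box CACGTG, the letters that MYC binds together with MAX. The window runs from 250 bases before to 50 after the gene's start (RefSeq, GRCm38.p6, chr10:127063285-127063584, plus strand), with each CACGTG in capitals:
Cdk4 promoter: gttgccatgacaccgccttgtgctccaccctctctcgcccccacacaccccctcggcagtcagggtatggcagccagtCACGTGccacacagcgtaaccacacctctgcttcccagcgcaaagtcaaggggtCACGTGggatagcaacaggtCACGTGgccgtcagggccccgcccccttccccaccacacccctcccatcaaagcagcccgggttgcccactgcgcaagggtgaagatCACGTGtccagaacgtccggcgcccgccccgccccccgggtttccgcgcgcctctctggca
The motif reads the same on both strands and begins 172, 118, 98 and 11 bases before the start. At least 1 copy is found in 7.15% of 32851 RefSeq promoter windows of 300 bases, and 4 or more in 8 of them. Of the 10 regulators, 6 had an entry in the table, and of these only Cdk6 also held the motif. It occurred once, 220 bases before the RefSeq start of Cdk6. That window, chr5:3343643-3343942, lies inside the Cdk6 span given above, which comes from GENCODE and begins earlier. Ccnd1, Ccnd2, Rb1 and Myc had no entry. A match of letters is not a measured binding site.

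Cdkn1b, the gene for p27, mirrored Ccnd1 in the knockdown libraries and, by a smaller step, in the controls. It was at 14.6 and 34.7 TPM in shTopors and 25.7 and 32.9 TPM in shCtrl. The library shTopors 1, with the highest Ccnd1, had the lowest Cdkn1b, and shTopors 2, with the lowest Ccnd1, had the highest Cdkn1b. Likewise shCtrl 1 had more Ccnd1 than shCtrl 2 (783 against 520 TPM) and less Cdkn1b. With the replicate number as a block, the SE of the group difference was 0.33 for Ccnd1 and 0.29 for Cdkn1b. Without the block it was 0.55 and 0.41. The labels do not say whether these numbers mark shared cultures. Of all tested genes, 7.17% lay farther apart in the shTopors pair on the log2 scale. The log2 difference between groups was -0.35 (SE 0.41, 95% interval -1.33 to 0.62, limma's adjusted p = 0.701), with an excess of -0.17. It was 0.24 without shTopors 1 and -0.95 without shTopors 2, where the adjusted p was 0.0397. Per 100 TPM of D cyclins there were 1.27 and 7.60 TPM of Cdkn1b in shTopors and 2.24 and 4.04 TPM in shCtrl. The mean difference was 1.29 (exact permutation p of 1), and the knockdown libraries again enclosed the controls. Cdkn1b lies at mm10 chr6:134920401-134925513 on the plus strand (ENSMUSG00000003031).

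**Figure D3:**
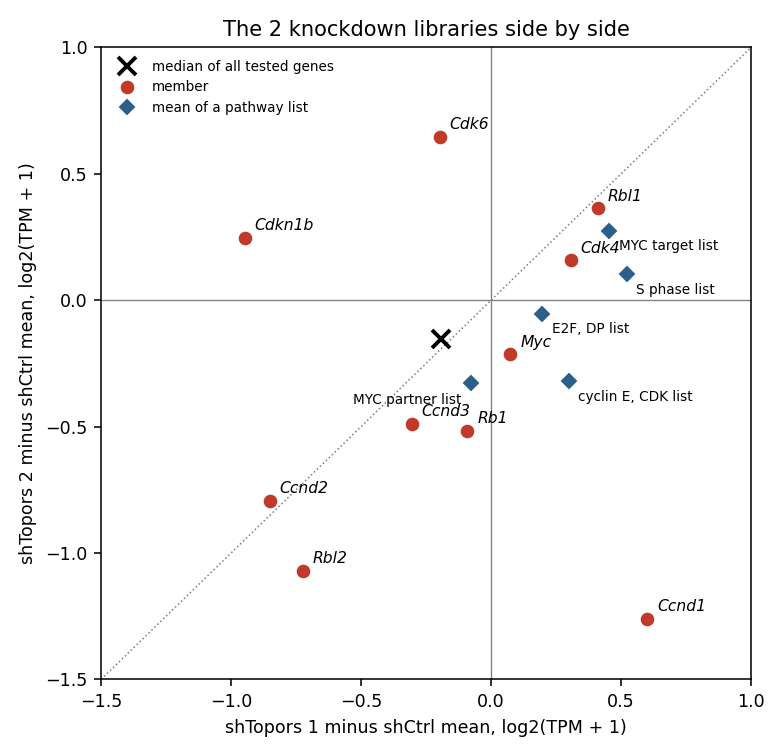
Difference of shTopors 1 (x axis) and shTopors 2 (y axis) from the shCtrl mean on the log2(TPM + 1) scale, for the 10 regulators (circles), the means of 5 pathway lists (diamonds) and the median of all tested genes (cross). Ccnd1 (0.60 and -1.26), Cdkn1b (-0.95 and 0.24) and Cdk6 (-0.20 and 0.65) lie far from the dotted line of equality, and Ccnd2 and Rbl1 lie close to it.

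No pocket protein gene passed the adjusted threshold. The level of Rbl2 lay below both controls in both knockdown libraries, that of Rbl1 above them, and that of Rb1 overlapped them. Rbl2 encodes p130, the pocket protein that prevails in quiescent cells, where it represses cell cycle genes together with E2F4. It was at 24.6 and 19.2 TPM in shTopors and 37.1 and 46.1 TPM in shCtrl, with no overlap. The means were 21.9 ± 3.85 TPM in shTopors and 41.6 ± 6.35 TPM in shCtrl (SD, n = 2), a ratio of 0.53. The log2 difference was -0.90 (SE 0.28, 95% interval -1.55 to -0.25), its excess -0.71 and the adjusted p = 0.238 in limma's test, which did not pass. It ranged from -1.07 to -0.73 with 1 library left out, with an adjusted p of 0.0291 without shTopors 1, 0.124 without shTopors 2, 0.713 without shCtrl 1 and 0.988 without shCtrl 2.

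Rbl1 encodes p107, the pocket protein that is made as cells cycle and whose gene is itself an E2F target. It was at 8.31 and 8.01 TPM in shTopors and 4.91 and 7.30 TPM in shCtrl. The knockdown libraries were nearly equal and above both controls. The log2 difference was 0.39 (SE 0.30, 95% interval -0.33 to 1.10), its excess 0.57 and the adjusted p = 0.561 in limma's test. Rb1, the retinoblastoma tumour suppressor gene, was at 14.1 and 10.2 TPM in shTopors and 13.7 and 16.5 TPM in shCtrl, and the groups overlapped. Its log2 difference was -0.30 (SE 0.29, adjusted p = 0.645 in limma's test), with an excess of -0.12.

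Within each library, Rbl1 took 17.7% and 21.4% of pocket protein TPM in shTopors and 8.82% and 10.4% in shCtrl. Every shTopors share was above every shCtrl share. The mean share was 19.6% ± 2.64 in shTopors and 9.63% ± 1.15 in shCtrl (SD, n = 2), a difference of 9.92 percentage points, with an exact two-sided permutation p of 0.33, the smallest that 2 libraries per group allow, and a Benjamini-Hochberg p of 1 over the 4 ratios. It ranged from 8.06 to 11.8 points with 1 library left out. Rbl2 took 52.4% and 51.3% in shTopors and 66.6% and 66.0% in shCtrl, and Rb1 29.9% and 27.3% in shTopors and 24.6% and 23.6% in shCtrl. There were 2.96 and 2.39 Rbl2 transcripts per Rbl1 transcript in shTopors and 7.55 and 6.31 in shCtrl. The ratio was lower in both knockdown libraries, and as a ratio within a library it shows unequal change of these genes and not which of them moved. The summed pocket protein level was 47.0 and 37.4 TPM in shTopors and 55.7 and 69.9 TPM in shCtrl.

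The promoters of the pair with opposite signs are shown because Rbl1 and Rbl2 differ in E2F motifs. Both windows run from 250 bases before to 50 after the start (RefSeq, GRCm38.p6, Rbl1 at chr2:157204485-157204784 on the minus strand and Rbl2 at chr8:91069807-91070106 on the plus strand), with E2F motifs in capitals:
Rbl1 promoter: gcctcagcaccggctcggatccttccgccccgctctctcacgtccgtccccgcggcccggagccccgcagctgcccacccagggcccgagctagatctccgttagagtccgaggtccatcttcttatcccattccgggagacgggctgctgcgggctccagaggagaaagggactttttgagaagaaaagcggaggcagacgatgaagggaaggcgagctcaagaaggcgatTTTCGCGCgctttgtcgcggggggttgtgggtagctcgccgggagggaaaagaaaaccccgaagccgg
Rbl2 promoter: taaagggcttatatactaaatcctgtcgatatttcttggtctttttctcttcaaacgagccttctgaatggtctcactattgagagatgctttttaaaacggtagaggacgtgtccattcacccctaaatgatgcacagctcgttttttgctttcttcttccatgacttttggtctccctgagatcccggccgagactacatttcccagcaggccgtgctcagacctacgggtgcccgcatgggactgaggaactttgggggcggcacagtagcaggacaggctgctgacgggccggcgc
The search covered TTTCGCGC, TTTGGCGC, TTTCCCGC and TTTGCCGC on both strands. Rbl1 held TTTCGCGC once, beginning 18 bases before the start, and Rbl2 held none of the 4 in this window. Among the regulators with an entry, Rbl1 was the only one with a match. Matching letters do not show binding, and a link between this motif and the levels was not tested. Any of them was found in 2.27% of the 32851 windows, and no window of the regulators held both an E2F motif and an E box. In mm10 the genes span chr2:157145893-157204534 on the minus strand for Rbl1 (ENSMUSG00000027641) and chr8:91070057-91123844 on the plus strand for Rbl2 (ENSMUSG00000031666). Rb1 (ENSMUSG00000022105) spans chr14:73183673-73325822 on the minus strand.

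Myc had the smallest log2 difference of the 10. It was at 29.4 and 23.9 TPM in shTopors and 31.8 and 24.5 TPM in shCtrl. The groups overlapped, with shTopors 1 between the controls and shTopors 2 just below both. The means were 26.7 ± 3.91 TPM in shTopors and 28.1 ± 5.23 TPM in shCtrl (SD, n = 2). The log2 difference was -0.07 (SE 0.28, 95% interval -0.73 to 0.59, adjusted p = 0.914 in limma's test), and its excess over all genes had the other sign, 0.11. It was 0.087 under median-of-ratios scaling and 0.092 under quantile normalization, and the interval leaves room for changes of either sign. Myc lies at mm10 chr15:61985391-61990374 on the plus strand (ENSMUSG00000022346).

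**Figure D4:**
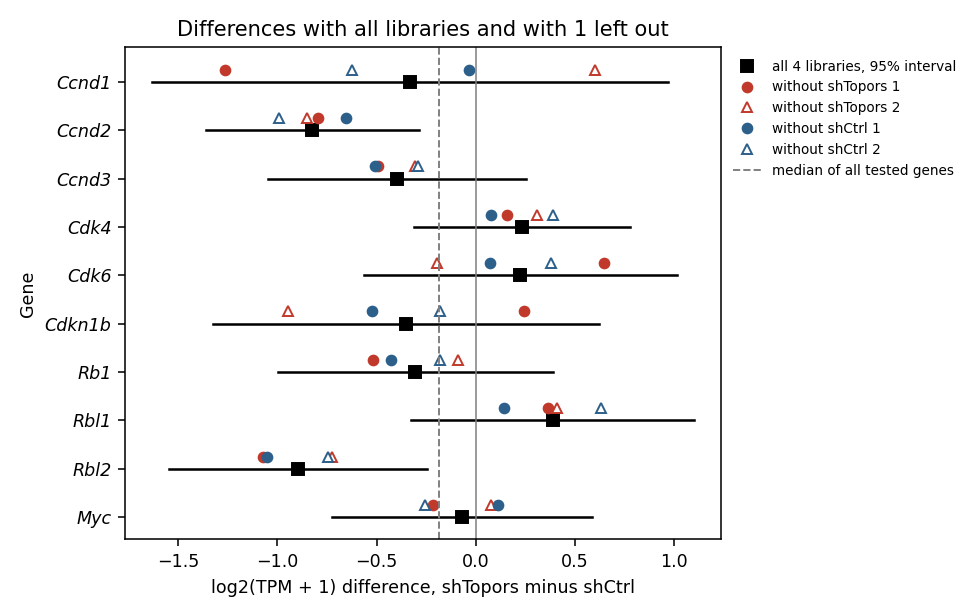
Log2(TPM + 1) difference, shTopors minus shCtrl, of each regulator with all libraries (black squares with 95% intervals) and with 1 library left out (coloured symbols), beside the median of all tested genes (dashed). Leaving out shTopors 1 or shTopors 2 moves Ccnd1 to -1.26 or 0.60, while Ccnd2 stays between -0.99 and -0.65 and Rbl2 between -1.07 and -0.73.

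Genes around the regulators were read from 5 lists, and none of their members passed the adjusted threshold in either direction. The list of cyclin E, CDK inhibitors and CDK activation had 17 tested members of 18. Its median log2 difference was 0.04, against -0.18 over all genes. At an unadjusted p under 0.05 its calls were 2 higher (Skp2 and Cks1b) and 1 lower (Fbxo31), against 3.98% and 10.7% of all tested genes. Skp2, part of the ubiquitin ligase that degrades p27, was at 11.0 and 6.30 TPM in shTopors and 3.777 and 3.781 TPM in shCtrl, a log2 difference of 0.97 (SE 0.34, adjusted p = 0.267 in limma's test). Cks1b, chosen after its values were seen as the cofactor of Skp2 in that step, was at 73.9 and 65.5 TPM in shTopors and 35.9 and 51.9 TPM in shCtrl. Cdkn1a, the p21 gene, was at 89.4 and 19.3 TPM in shTopors and 132 and 77.2 TPM in shCtrl, where shTopors 1 lay between the controls and shTopors 2 below both. Its log2 difference was -1.25 (SE 0.65, adjusted p = 0.415 in limma's test). Fbxo31, named after its values were seen because it was the lower call, was at 18.9 and 8.92 TPM in shTopors. In shCtrl it was at 25.3 and 27.5 TPM. Averaged over the list, shTopors 1 lay 0.30 above and shTopors 2 at -0.32 from the mean of the controls, so the knockdown libraries disagreed here as for Ccnd1.

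The E2F, DP and MuvB genes encode the factors that pocket proteins bind. Of 16 listed, 15 were tested, with a median log2 difference of 0.11. None had an unadjusted p under 0.05, against 3.98% of all tested genes higher and 10.7% lower. The groups did not overlap for 3 that were higher and 1 that was lower, against 14.6% and 35.2% of all tested genes. E2f4, the main partner of p130, was at 30.8 and 19.6 TPM in shTopors and 20.8 and 19.65 TPM in shCtrl. Only shTopors 1 stood apart, with a log2 difference between groups of 0.27 (SE 0.30, adjusted p = 0.689 in limma's test). Tfdp2, a DP dimer partner of E2F factors, was at 24.3 and 20.2 TPM in shTopors and 34.1 and 31.5 TPM in shCtrl, a log2 difference of -0.55 (SE 0.26, adjusted p = 0.383 in limma's test).

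The 20 S phase genes that E2F factors switch on had a median log2 difference of 0.31, with 18 above the median of all genes and 3 higher at an unadjusted p under 0.05. Over all tested genes 3.98% were higher at that threshold. The groups did not overlap for 9 of the 20, all higher in shTopors, against 14.6% of all tested genes. Cdc45, a subunit of the replicative helicase, was at 14.0 and 12.0 TPM in shTopors and 4.95 and 6.98 TPM in shCtrl. Both knockdown libraries were above the controls, with a log2 difference of 1.02 (SE 0.30, adjusted p = 0.226 in limma's test). Pola1, a DNA polymerase alpha subunit gene, was at 15.7 and 13.4 TPM in shTopors and 13.4 and 24.0 TPM in shCtrl, with a log2 difference of -0.29 (SE 0.34, adjusted p = 0.702 in limma's test). Averaged over the list and set against the mean of the controls, shTopors 1 lay at 0.52 and shTopors 2 at 0.10, below the 0.15 of shCtrl 2. On that scale the median of all tested genes was -0.19 in shTopors 1, -0.16 in shTopors 2 and 0.09 in shCtrl 2. Measured from these medians, the list lay higher in shTopors 2 than in shCtrl 2.

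For MYC, partners and antagonists were counted apart from targets. Of 13 genes for MYC partners and antagonists, 12 were tested, with a median log2 difference of -0.08 and 2 lower at an unadjusted p under 0.05, as were 10.7% of all tested genes. Mxd4, a MAX partner that opposes MYC, was at 102 and 52.9 TPM in shTopors and 150 and 139 TPM in shCtrl, a log2 difference of -0.96 (SE 0.34, adjusted p = 0.272 in limma's test). Mlx, a MAX-like partner, was at 23.6 and 24.0 TPM in shTopors and 14.9 and 19.5 TPM in shCtrl, a log2 difference of 0.46 (SE 0.27, adjusted p = 0.461 in limma's test).

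All 20 MYC targets, most of them ribosome biogenesis genes, lay above the median of all genes, with a median log2 difference of 0.42 and an excess of 0.60. Of these, 2 were higher at an unadjusted p under 0.05 and 11 had groups that did not overlap, all higher in shTopors, against 3.98% and 14.6% of all tested genes. Dkc1, the pseudouridine synthase of small nucleolar and telomerase RNAs, was at 33.3 and 34.5 TPM in shTopors and 18.2 and 22.6 TPM in shCtrl. Its knockdown libraries nearly coincided above the controls, with a log2 difference of 0.71 (SE 0.26, adjusted p = 0.294 in limma's test). Pa2g4, a growth regulator that binds ribosomes, was at 53.1 and 77.5 TPM in shTopors and 70.5 and 67.8 TPM in shCtrl, with a log2 difference of -0.11 (SE 0.27, adjusted p = 0.867 in limma's test). Averaged over the list, shTopors 1 lay at 0.46 and shTopors 2 at 0.27 from the mean of the controls. Myc transcripts themselves lay at 0.07 and -0.21 on the same scale.

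**Figure D5:**
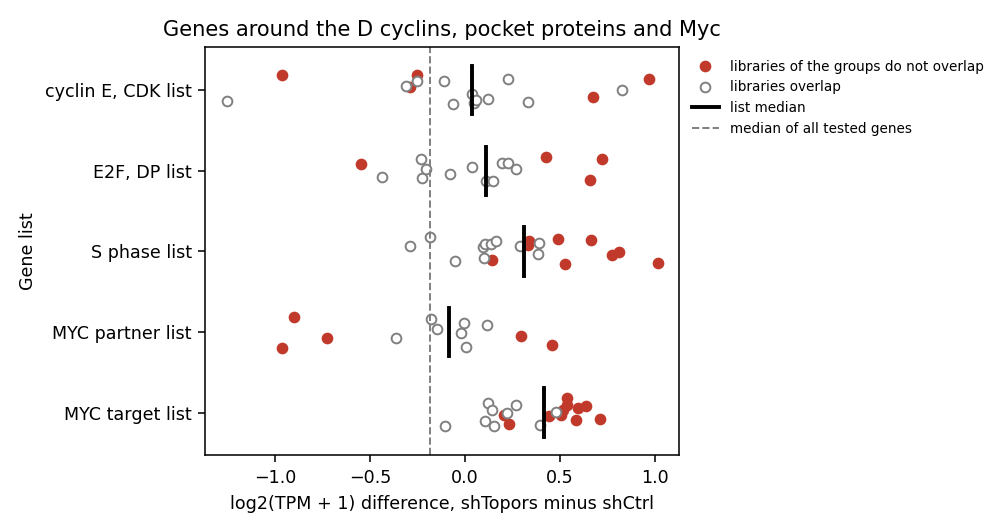
Log2(TPM + 1) difference, shTopors minus shCtrl, of each tested gene in 5 lists around the regulators, filled where the libraries of the groups do not overlap, with list medians (black) and the median of all tested genes (dashed). The S phase and MYC target lists lie mostly to the right of the dashed line, and no gene in any list passed the adjusted threshold.

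The genes with the most similar profile over the 4 libraries were found among 9484 tested genes by Euclidean distance of log2(TPM + 1), centred on the control mean. For Ccnd1 these were Tnfrsf10b, the mouse TRAIL receptor gene, at a distance of 0.21 and Fam129b at 0.25, and 32 genes lay within 0.5. Tnfrsf10b was at 39.4 and 10.2 TPM in shTopors and 27.4 and 20.7 TPM in shCtrl. For Cdkn1b the nearest were Nmi at 0.02 and Marcks at 0.03, with 504 genes within 0.5. For Rbl1 they were Capza1 and Lancl2 at 0.04 each, with 1315 genes within 0.5, and for Myc they were Capzb at 0.03 and Atf6b at 0.06, with 1724. Fewer genes lay within that distance of Ccnd1 than of the others. Such a count depends on how far a gene lies from the control mean. Ccnd1 lay at 0.60 in shTopors 1 and -1.26 in shTopors 2, and Myc at 0.07 and -0.21. The counts therefore do not show that the shape of the Ccnd1 profile is rarer. With 4 libraries this is a description of these libraries only.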

How the data were processed

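RNA of AML12 cells was measured in 2 shTopors and 2 shCtrl libraries. Per the labels' protocols, medium was changed after 24 hours, cells were collected 5 days after infection, and strand-specific libraries were made after ribosomal RNA depletion. The authors deposited 1 table of TPM per gene and library. Per the submitters' processing notes, tools included HISAT2, StringTie, HTSeq and DESeq2, with the build mm10. The sources used here do not name the program that wrote the TPM or its strand setting. The columns were assigned by name. Values of 3 identifiers on 2 rows were summed, and 26 of 27 symbols turned into dates were restored. Coordinates come from GENCODE M21 (mm10), in which 52397 of 52630 identifiers were found. TPM summed to between 999914 and 999943 per library.

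Log2(TPM + 1) was tested with limma 3.58.1 (R 4.3.3), using its mean-variance trend and the group as the single term, over genes whose mean reached 1 TPM. This log2 scale understates changes of low genes. Ratios within a library were tested by exact permutation. The limma fit was also run on simulated data, with equal spread in both groups and spreads shuffled over genes. In the real libraries the log2 difference within a pair had an SD of 0.69 in shTopors and 0.43 in shCtrl. The simulation therefore does not show how the fit behaves under the spread of these data. The 10 genes and the lists were chosen with earlier results of these data known. Named genes were the 10 regulators, Topors, for each list any gene past the threshold or otherwise the largest positive and negative log2 difference at 5 TPM or more in a group, and the 2 nearest profiles of 4 regulators. Alternatives were other pseudocounts, filters, scalings and variance models, a replicate block, and leaving out each library. List medians under these, and counts at an unadjusted p, were added after seeing the data. Python 3.11.15, numpy 2.4.6 and pandas 2.3.3 were used.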

Additional observations from a re-analysis of the deposited data

How the results depend on the processing

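The depth behind TPM is unknown, so no detection limit was computed, and differences below the spread of 2 libraries per group were not detectable. The all-gene count of 5 was 0 with no filter on low values and 1 with the filter raised to 5 TPM, under quantile normalization, under median-of-ratios scaling and when rescaled over protein-coding genes. With 1 library left out it ranged from 0 (without shCtrl 2) to 2166 (without shTopors 2), with 1147 without shTopors 1. It was 1984 at an unadjusted p under 0.05 and 33 with the replicate number as a block, where no regulator passed. The labels do not say that numbers mark shared cultures, and replicate deviations correlated at 0.20 between the groups, so the numbers were not taken as pairs. Of the 10 regulators, from 0 to 2 passed with 1 library left out (Ccnd1 and Rbl2 without shTopors 1, Ccnd2 and Cdkn1b without shTopors 2, in fits where 8.49% and 16.0% of all genes passed), and 0 under all other alternatives run.

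The direction of Ccnd2, Ccnd3, Cdk4, Rb1, Rbl1 and Rbl2 held under all alternatives run, and 7 of 130 values of all regulators reversed. Reversed were Ccnd1 and Cdk6 without shTopors 2, and Cdkn1b without shTopors 1: with 1 library left out their log2 differences ranged from -1.26 to 0.60, from -0.20 to 0.65 and from -0.95 to 0.24. Myc reversed to 0.087 under median-of-ratios scaling and 0.092 under quantile normalization, and ranged from -0.25 to 0.11 with 1 library left out, positive without shTopors 2 or shCtrl 1. The difference in the Ccnd1 share ranged from -7.75 to 18 points with 1 library left out, that in the Cdk6 share from -5.71 to 6.73, and that in Cdkn1b per 100 D cyclin TPM from -1.87 to 4.46. The median excess of a list ranged from -0.16 to 0.22 for cyclin E and CDK genes, from 0.24 to 0.76 for S phase genes and from 0.40 to 0.70 for MYC targets with 1 library left out. For MYC targets it was 0.47 with no filter and 0.42 after quantile normalization. The cause of these changes was not tested.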

Other observations

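Several regulators overlap a gene on the opposite strand, and their levels did not all follow it. Tspan31, a tetraspanin gene whose span overlaps that of Cdk4, was at 119 and 105 TPM in shTopors and 138 and 134 TPM in shCtrl, below both controls where Cdk4 was above them. Bysl, a ribosome biogenesis gene that overlaps Ccnd3, was at 15.7 and 14.2 TPM in shTopors and 9.98 and 9.48 TPM in shCtrl, above both controls where Ccnd3 was below them. Aktip, which overlaps Rbl2, was at 17.0 and 17.9 TPM in shTopors and 18.8 and 32.7 TPM in shCtrl, below both controls as Rbl2 was. Lpar6, a lysophosphatidic acid receptor gene that lies within Rb1 on the other strand, was at 9.69 and 15.2 TPM in shTopors and 16.7 and 27.7 TPM in shCtrl. How the counting treated strand was not stated in the labels, and reads shared between such partners were not separated. These genes were chosen by their overlap, and Oraov1 (Ccnd1) and Rcbtb2 (Rb1) also overlap a regulator.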
